A study of Mus musculus with 18 samples.

Results

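The expression profiles of B1/P/Rbf mammary tumors were compared with those of normal mammary gland, and the changes of epithelial genes were set apart from the loss of fat and muscle transcripts. The comparison used 8 of the 18 samples of the series, 5 tumors and 3 glands, chosen by their titles. The tumors had the genotype Brca1fl/fl/Trp53fl/fl/TgK18GT121Tg/+ and the glands were wild type, all from female C57Bl/6 mice, and the labels give no age. Adenovirus expressing Cre from a CMV promoter was injected through the nipple, so that both floxed genes were deleted and the transgene was switched on in the cells it reached. The T121 fragment of SV40 large T antigen, driven by the keratin 18 promoter of a BAC transgene, binds pRb, p107 and p130, the 3 proteins of the Rb family (Rbf). Whole tissue was sequenced, and the mouse is the replicate throughout.

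A mammary gland is a tree of epithelial ducts lying in a pad of white fat, with vessels, nerves, connective tissue and a lymph node, and body wall muscle lies against it. Luminal cells line the ducts, some of them carry estrogen and progesterone receptors, and basal myoepithelial cells surround them. A carcinoma sample may hold less fat and muscle than a gland sample. Every epithelial transcript then takes a larger part of the library without any change in an epithelial cell. Growth of the tumor and the way a sample was cut out cannot be told apart here. Rb family proteins hold back E2F transcription factors and, through the DREAM complex, the genes of DNA replication and mitosis. In whole tissue, fewer cells of a type and less RNA per cell cannot be told apart.

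Libraries held 27661173 to 36974448 expected counts in the tumors and 30831714 to 37516292 in the glands. Counts were scaled by TMM, which sets the bulk of genes equal between libraries, and values are given as CPM (TMM-scaled counts relative to library size, not divided by gene length). Changes were tested with edgeR's quasi-likelihood test and called at an adjusted p of at most 0.05. A second scaling set the mean log2 level of 14 epithelial genes equal between libraries and is termed epithelial scaling. It reads a change per unit of epithelial transcript, which holds only if those 14 genes keep their level in an epithelial cell, and this could not be tested here. With TMM 13 of the 14 were themselves called higher (median log2 fold change 1.87), against 17.1% of all genes. They were chosen with earlier results of these data known, and every level read on this scale depends on that choice. An earlier look at fold changes listed by the study implied 2 sets of libraries, which no label names, with all B1/P/Rbf tumors in one, all glands and P/Rbf tumors in the other, and 3 and 2 B1/P tumors in each. Set and group cannot be compared within a set, and a fit with a term for the set rests on those B1/P tumors.

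Both deleted genes were examined first. Brca1 (chr11:101488764-101551955, GRCm38), a homologous recombination gene transcribed in cycling cells, had 21.1, 27.8, 45.0, 27.9 and 26.9 CPM in B1/P/Rbf tumors 1 to 5 and 5.75, 4.61 and 5.99 in glands 1 to 3. All tumors lay above all glands, and the whole-gene count rose (log2 fold change 2.45, SE 0.46, adjusted p = 0.000535), although it was 0.59 (adjusted p = 0.266) with epithelial scaling. Trp53 (chr11:69580359-69591873) had 18.7, 15.3, 9.98, 9.82 and 19.7 CPM in the tumors and 58.2, 71.8 and 54.4 in the glands, without overlap, and fell (log2 fold change -2.06, SE 0.36, adjusted p = 0.000300). A count over the whole gene includes exons outside the floxed part, and cells that Cre did not reach carry the intact alleles. The study's own RT-qPCR found a partial rather than a full loss of Brca1 message in tumor 3, which has the highest count here. Without tumor 3 the log2 fold change of Brca1 was 2.25 (adjusted p = 0.00136).

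Of 19186 genes tested, 7108 were called (37%), with 3273 higher (17.1%) and 3835 lower (20%) in the tumors, and the median log2 fold change was 0.05. The CPM of tumors and glands did not overlap in 50.5% of genes, with the tumors higher in 23.1% and lower in 27.4%. Leaving out gland 3 gave 1999 higher genes and leaving out gland 1 gave 2138. The balance of higher and lower calls moved with the scaling. With library sizes alone it was 5122 higher and 2887 lower, at a median shift of 0.37. With epithelial scaling it was 534 higher (2.78%) and 13062 lower (68.1%), 70.9% in all, at a median shift of -1.83. Of the 3273 genes called higher with TMM, 533 (16.3%) were also called higher relative to the epithelial genes, and 779 were then called lower. The term for the 2 sets gave 1776 higher (9.26%) and 2103 lower (11%), 20.2% in all, of which 1445 and 1869 were shared with the first fit.

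Transcripts of fat and skeletal muscle showed the largest differences among 28 gene lists. The 24 adipocyte genes took 3.72%, 3.48% and 4.23% of all counts in glands 1 to 3, and 0.0631%, 0.0248%, 0.0224%, 0.0221% and 0.0211% in tumors 1 to 5. The 30 skeletal muscle genes took 7.46%, 3.78% and 5.81% of the gland counts and 0.0033% to 0.00535% of the tumor counts. All 24 adipocyte genes and 29 of 30 muscle genes fell, against 20% of all genes tested, with median log2 fold changes of -7.62 and -11.50. With muscle genes that had at most 3 counts in every tumor set to that floor, the muscle median was -11.41. Summed over every gene called lower, adipocyte genes made up 9.07% and muscle genes 13.6% of the fall in mean CPM. With the term for the 2 sets, 16 of 24 and 20 of 30 were called lower, against 11% of all genes. In gland 2, muscle counts were lowest, while its adipocyte share was close to that of the other glands.

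**Figure D1:**
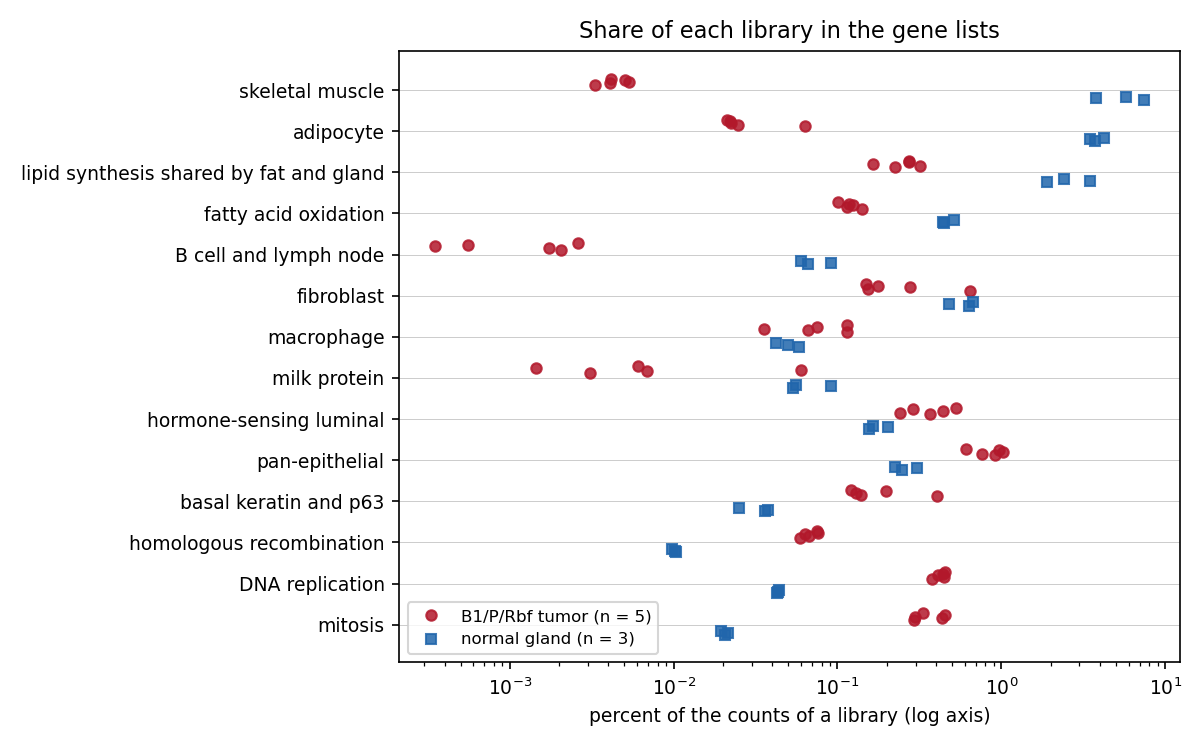
Percent of all counts of a library (log axis) in each of 14 gene lists, with 5 B1/P/Rbf tumors as circles and 3 normal glands as squares. Muscle and adipocyte shares are lower in every tumor, while replication and mitosis shares are higher in every tumor.

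Adipocyte genes fell by different amounts. Adipoq, the fat hormone adiponectin, had 18.2, 3.53, 0.0827, 1.17 and 0.195 CPM in tumors 1 to 5 and 1728, 1343 and 2226 in the glands (log2 fold change -8.57, SE 1.65, adjusted p = 0.000675). Fabp4, the adipocyte fatty acid binding protein, had 118, 26.3, 3.45, 12.5 and 12.9 CPM in the tumors and 5545, 6049 and 8077 in the glands (log2 fold change -7.56, SE 0.86, adjusted p = 4.30e-06). For both genes tumor 1 was the highest and tumor 3 the lowest of the tumors, and every gland lay above every tumor. As a percent of the gland mean, the median over the 24 genes was 1.48, 0.340, 0.0550, 0.160 and 0.107 in tumors 1 to 5. Pnpla2, the first lipase of triglyceride breakdown, kept a more even level of 99.0, 76.7, 82.7, 76.1 and 74.3 CPM against 1207, 1083 and 1605 in the glands (log2 fold change -3.99, SE 0.30, adjusted p = 8.66e-08). Pparg, the master regulator of fat cell formation, had 3.91, 3.56, 4.30, 2.56 and 4.77 CPM in the tumors and 80.9, 109 and 114 in the glands (log2 fold change -4.72, SE 0.48, adjusted p = 1.41e-06). Tumor 1 was the highest tumor for Pnpla2 by a small margin and was not the highest for Pparg. Together with Cebpa and Lipe these were the 4 adipocyte genes above 1% of the gland mean in every tumor, and 9 others were below 1% in every tumor. With the term for the 2 sets, Adipoq was -5.85 (adjusted p = 0.104) and Plin1 -5.29 (adjusted p = 0.134), while Fabp4, Pparg and Pnpla2 kept their calls.

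**Figure D2:**
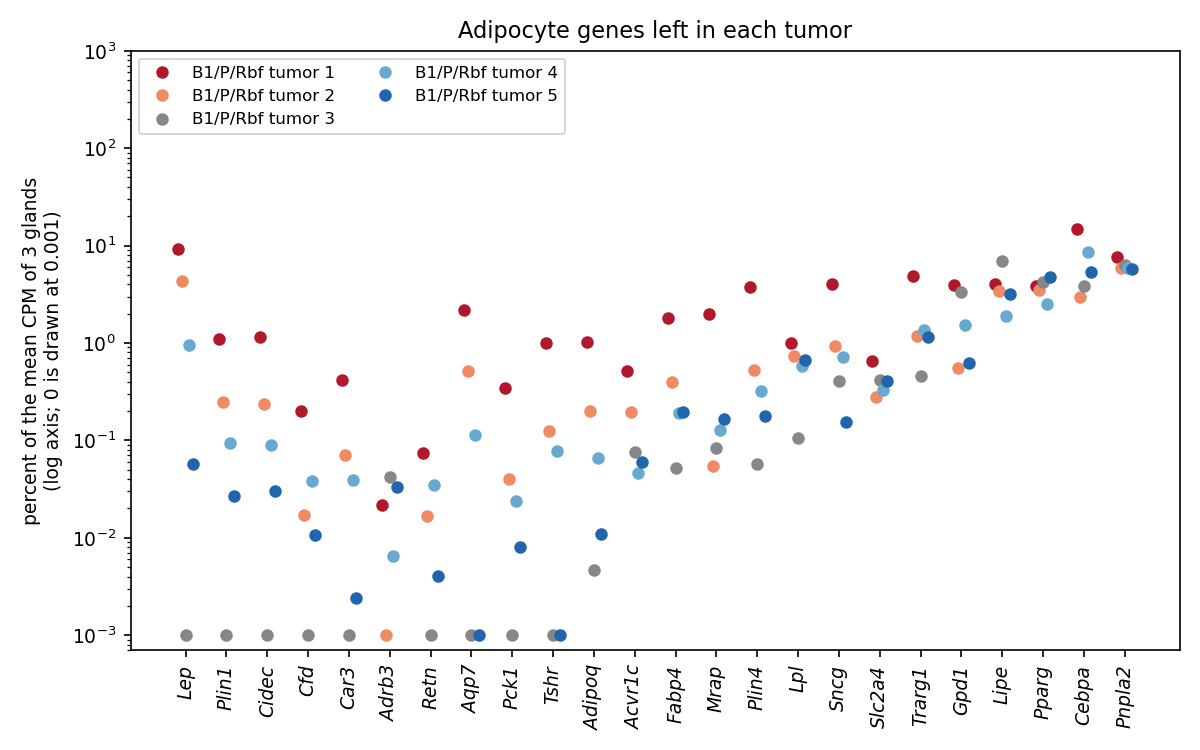
Level of each of 24 adipocyte genes in each B1/P/Rbf tumor, as a percent of the mean CPM of 3 glands (log axis, with 0 drawn at 0.001). Adipoq runs from 0.00469% in tumor 3 to 1.03% in tumor 1, while Pnpla2 lies within 5.72% and 7.62% in all tumors.

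Most muscle transcripts were nearly absent from the tumors. Myh4, the heavy chain of fast muscle fibers, had 0, 0.243, 0.0276, 0 and 0 CPM in tumors 1 to 5 and 15134, 7572 and 11171 in the glands (log2 fold change -17.54, SE 2.72, adjusted p = 9.65e-05). Ckm, muscle creatine kinase, had 6786, 3711 and 5855 CPM in the glands and 5 counts in all tumors together, a ratio of 191986-fold (95% interval 82267 to 591280.0) that covers counting error only. The call of Ckm was lost with the term for the 2 sets. Ttn, the giant spring protein of the sarcomere, had 0.397, 1.19, 0.276, 0.0254 and 0.325 CPM in the tumors and 4495, 1814 and 3046 in the glands (log2 fold change -12.77, SE 1.72, adjusted p = 2.40e-05). In all of them gland 2 was the lowest gland and still far above every tumor. Relative to the gland mean, 25 of the 30 genes were below 1% in every tumor. The others were Tnnt1, Ampd1, Tnnc1, Tnni1 and Myod1. Tnni1 ranged from 1.89% to 19.1% of the gland mean and Myod1 from 0% to 25.1%. Tnnc1, shared by slow muscle and heart, was the 1 gene not called, at 12.7% to 83.5% of the gland mean (log2 fold change -1.48, SE 0.85, adjusted p = 0.185). Tnnt3, a fast troponin T, had 2.95, 13.1, 20.0, 20.1 and 8.70 CPM in the tumors, at 0.0676% to 0.460% of the gland mean. It was called lower in the first fit and was -0.34 (adjusted p = 0.938) with the term for the 2 sets.

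Genes of heat-producing fat were measured as a separate list, and 6 of 9 fell, against 20% of all genes, with a median of -6.18, or -5.05 with members at the floor set to it. Ucp1, the uncoupling protein that defines brown and beige adipocytes, had 11.1, 163 and 160.2 CPM in the glands and 6 counts in the tumors, a ratio of 3474-fold (95% interval 1596 to 9469.7). Elovl3, a fatty acid elongase, had 2.34, 3.66 and 3.66 CPM in the glands and no counts in any tumor, so it was at least 33.1-fold lower. Gland 1 was the lowest gland for Ucp1, and the glands differed more in this gene than in Fabp4. Dio2, which activates thyroid hormone, was measured at 2.07, 144, 9.54, 1.24 and 107 CPM in the tumors and 5.63, 10.4 and 9.45 in the glands, where the groups overlapped (log2 fold change 2.64, SE 1.78, adjusted p = 0.260). Cox7a1 and Cox8b, subunits of cytochrome oxidase that muscle also uses, are 2 of the 6 that fell. The term for the 2 sets gave 4 lower and 1 higher, against 11% and 9.26% of all genes, the higher one being Prdm16, a regulator of brown fat, at 4.59 (adjusted p = 0.00928).

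Lymphocyte transcripts fell as well. Of 15 B cell and lymph node genes 14 fell, with a median of -6.83, and of 11 T cell genes 10 fell, with a median of -4.70, against 20% of all genes. The B cell list took 0.0603% to 0.0915% of gland counts and 0.000348% to 0.0026% of tumor counts. Every tumor lay below every gland for the 3 genes that follow. Ccl21a, a chemokine of lymph node stroma, had 0.936, 0.432, 0, 0.203 and 0.292 CPM in the tumors and 214, 281 and 192 in the glands (log2 fold change -9.25, SE 1.59, adjusted p = 0.000259). Cd3e, a chain of the T cell receptor complex, had 1.33, 1.46, 0.110, 0.203 and 3.57 CPM against 31.3, 44.1 and 28.9 (log2 fold change -4.70, SE 1.04, adjusted p = 0.00195), and tumor 5 held the most of it. Glycam1, a mucin made both by the secretory gland and by high endothelial venules of lymph nodes, had 0.113, 0.270, 0, 0.0254 and 0.0325 CPM in the tumors and 354, 575 and 347 in the glands (log2 fold change -12.16, SE 0.86, adjusted p = 5.72e-08). The fit with a term for the 2 sets called 13 of the B cell genes and 9 of the T cell genes lower, and 11% of all genes, while Ccl21a was -3.91 (adjusted p = 0.152). The share of each gland that was lymph node was not tested.

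In the other stromal lists fewer genes fell, and their counts stand against 20% of all genes. Of 16 endothelial genes 8 fell (median -1.26), and leaving out single libraries gave 4 to 11, with 5 without tumor 3, 4 or 5 and 4 without gland 1 or gland 2. Pecam1, an adhesion molecule between endothelial cells, had 108, 60.5, 41.4, 41.0 and 41.7 CPM in the tumors and 148, 146 and 123 in the glands (log2 fold change -1.25, SE 0.41, adjusted p = 0.0227), a call lost without tumor 3, 4 or 5 or gland 1 or 2. Of 18 fibroblast genes 5 fell (median -0.71), a share near that of all genes, namely Dpt, Gsn, Clec3b, Lum and Thy1, at log2 fold changes of -4.74, -4.79, -5.02, -2.89 and -1.67. Col1a1, the main fibrillar collagen, was measured at 1305, 234, 644, 272 and 231 CPM in the tumors and 341, 179 and 289 in the glands, with overlap (log2 fold change 0.99, SE 0.69, adjusted p = 0.275). The fibroblast list took 0.648% of the counts of tumor 1, within the gland range of 0.481% to 0.67%, and 0.15% to 0.275% of the other tumors. Of 7 pericyte genes 3 fell (median -0.92), and Rgs5 was at 253, 63.5, 97.2, 161 and 129.6 CPM against 142, 155 and 226 (log2 fold change -0.31, SE 0.43, adjusted p = 0.611). Of 9 Schwann cell genes 4 fell (median -2.23). With epithelial scaling, where 68.1% of all genes were lower, the counts were 14 of 18 fibroblast, 15 of 16 endothelial, 7 of 7 pericyte and 8 of 9 Schwann cell genes. They were 5, 8, 1 and 2 with the term for the 2 sets, where 11% of all genes were lower.

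Macrophage genes had more higher than lower calls, 3 of 12 higher (Adgre1, Cd68 and Fcgr1) at a median of 0.87, against 17.1% of all genes. Adgre1, the F4/80 antigen, had 40.8, 31.8, 10.7, 21.9 and 48.3 CPM in the tumors and 10.6, 6.32 and 7.96 in the glands (log2 fold change 1.89, SE 0.55, adjusted p = 0.0121). C1qa, a complement subunit made by tissue macrophages, was at 169.8, 128, 49.6, 97.0 and 177 CPM against 82.1, 54.4 and 60.1, with overlap (log2 fold change 0.92, SE 0.50, adjusted p = 0.160). No member was called higher with epithelial scaling, against 2.78% of all genes, and 3 were lower, against 68.1%. The term for the 2 sets gave none higher and 1 lower, against 9.26% and 11% of all genes. Leaving out gland 3 left 1 call.

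Fat and secretory epithelium both make fatty acids, so genes of lipid synthesis cannot be assigned to one of them here. Of 16 such genes 13 fell, against 20% of all genes, with a median of -3.45, and the list took 1.89% to 3.47% of gland counts and 0.165% to 0.318% of tumor counts. Fasn, fatty acid synthase, had 323, 617, 289.9, 513 and 336 CPM in the tumors and 4688, 8876 and 5143 in the glands (log2 fold change -3.91, SE 0.43, adjusted p = 3.34e-06). Scd1, a desaturase, had 362, 209, 75.9, 396 and 312 CPM in the tumors and 11555, 19630.2 and 17710.0 in the glands (log2 fold change -5.91, SE 0.81, adjusted p = 2.99e-05). Gland 2 held the most Fasn and Scd1 of the glands although its adipocyte share was not the highest. Scd2, a related desaturase, was at 0.86 (adjusted p = 0.311). Dgat2, which makes triglyceride, was at 35.1, 32.6, 19.8, 38.7 and 579 CPM in the tumors and 488, 825 and 675 in the glands, and tumor 5 alone lay within the gland range (log2 fold change -2.23, SE 0.92, adjusted p = 0.0665).

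Fatty acid oxidation, which muscle, brown fat and most other cells carry out, fell in 17 of 18 genes, against 20% of all genes, with a median of -2.47. Acadm, medium-chain acyl-CoA dehydrogenase, had 45.6, 36.0, 50.6, 15.7 and 36.1 CPM in the tumors and 382, 392 and 497 in the glands (log2 fold change -3.53, SE 0.28, adjusted p = 1.71e-07). Hadha, of the trifunctional protein, had 88.0, 77.9, 84.6, 85.5 and 82.8 CPM in the tumors and 396, 371 and 452 in the glands (log2 fold change -2.28, SE 0.28, adjusted p = 8.69e-06). Cpt1a, the form of carnitine palmitoyltransferase outside muscle, was the 1 gene that rose, at 234, 247, 164, 187 and 165 CPM against 82.9, 73.9 and 80.9 (log2 fold change 1.33, SE 0.41, adjusted p = 0.0176), a call lost without any one of the 3 glands and absent with epithelial scaling at -0.51 (adjusted p = 0.355). Transcripts of the mitochondrial genome fell in all 15 genes tested, against 20% of all genes, with a median of -2.91. These transcripts took 6.97% to 7.72% of gland counts and 0.955% to 1.72% of tumor counts. They made up 15.2% of the summed fall in mean CPM, more than either tissue list. Nuclear copies of mitochondrial DNA share reads with these genes, and the predicted genes Gm28437, Gm28661 and Gm10925 fell beside them.

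Of 14 glycolysis genes 4 were higher and 2 lower (median 0.53), against 17.1% and 20% of all genes. The count moved with the scaling, to none higher and 10 lower (median -1.30) with epithelial scaling, against 2.78% and 68.1% of all genes. It was 7 higher and 1 lower with library sizes alone, where 5122 and 2887 of 19186 genes were. Slc2a1, the glucose transporter of most cells, had 500.4, 269, 213, 312 and 211 CPM in the tumors and 37.8, 41.8 and 34.6 in the glands (log2 fold change 2.98, SE 0.61, adjusted p = 0.00116), and was 1.14 (adjusted p = 0.0925) with epithelial scaling. Aldoa, the aldolase abundant in muscle, had 913, 846, 1053, 1635 and 754 CPM in the tumors and 6647, 4300.2 and 5941 in the glands (log2 fold change -2.44, SE 0.33, adjusted p = 2.48e-05). Its symbol belongs to 2 identifiers, and the one with more counts is given. Hk1 and Pfkp rose, Hk1 by 1.44, while Pkm, at 0.80, lost its call without gland 3, where 2 of the 4 were left. The second fall was Ldha at -0.88, a call lost without any one library other than tumor 2. Hk1, Pkm and Ldha were not called with the term for the 2 sets. In that fit 1 gene of the list was higher and 1 lower, against 9.26% and 11% of all genes.

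Pairs of related enzymes gave a comparison that does not depend on how libraries are scaled. In each of 16 pairs the form used by muscle, fat or basal cells was divided by its partner within a library, and the log2 ratios of 5 tumors and 3 glands were compared by an exact two-sided permutation test over 56 splits. In 14 pairs every tumor lay below every gland, at an exact p = 0.0357, the smallest p the design allows, and 0.0408 adjusted over the 16 pairs. Many of the restricted forms are in the muscle and fat lists above, and the pairs were chosen with earlier results known. These p-values therefore largely restate those falls and are not separate evidence for them. Eno3 to Eno1, muscle against general enolase, was -7.21 ± 0.76 in the tumors and 1.61 ± 1.11 in the glands (mean ± SD, n = 5 and n = 3). Cpt1b to Cpt1a, muscle against general carnitine palmitoyltransferase, was -6.08 ± 0.70 against 1.02 ± 0.38. Slc2a4 to Slc2a1, the insulin-responsive against the general glucose transporter, was -7.66 ± 0.44 against 3.14 ± 0.44. In these 3 pairs the tumors lay on the side of the general form and the glands on the side of the restricted form. Fabp4 to Fabp5, adipocyte against epithelial fatty acid binding protein, was -0.11 ± 2.08 against 6.07 ± 0.65, and tumors 1 and 2 lay nearest to the glands. Krt14 to Krt8, basal against luminal keratin, was -4.53 ± 2.12 in the tumors and -4.79 ± 0.80 in the glands, and Krt5 to Krt18 was -8.04 ± 3.45 against -4.48 ± 1.17. Both keratin ratios overlapped between the groups, with exact p of 0.821 and 0.143 and adjusted p of 0.821 and 0.152.

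**Figure D3:**
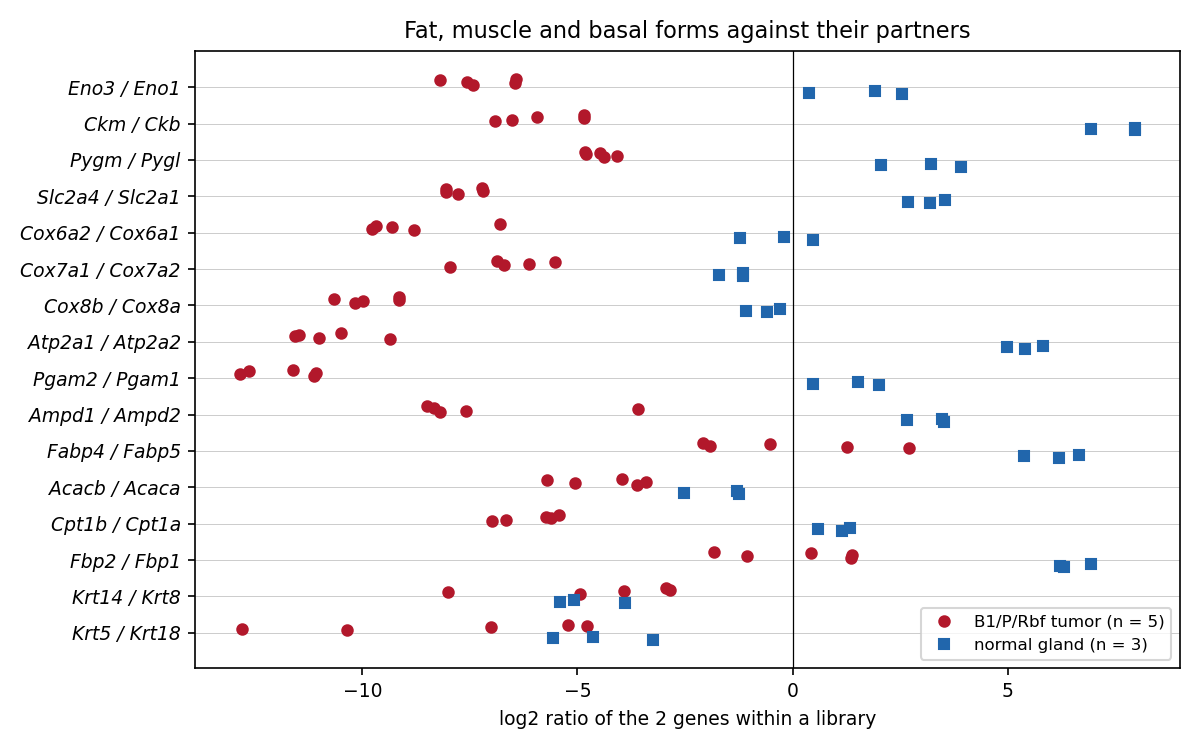
Log2 ratio of 2 related genes within each library for 16 pairs, with 5 B1/P/Rbf tumors as circles and 3 normal glands as squares. The tumors lie below the glands without overlap in all but the 2 keratin pairs.

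General epithelial genes rose together. Of 22 pan-epithelial genes 16 rose and none fell, against 17.1% of all genes called higher, with a median log2 fold change of 1.85. The list took 0.613% to 1.02% of tumor counts and 0.223% to 0.304% of gland counts. Epcam, an adhesion molecule of epithelia, had 655, 467, 1053, 803 and 861 CPM in the tumors and 199.6, 215 and 197 in the glands (log2 fold change 1.91, SE 0.39, adjusted p = 0.00103). Cdh1, E-cadherin, had 1370.1, 1442, 1214, 906 and 545 CPM in the tumors and 157, 187 and 161 in the glands (log2 fold change 2.70, SE 0.38, adjusted p = 4.01e-05). Grhl2, a transcription factor of epithelial identity, had 92.2, 106, 140.2, 136 and 118 CPM in the tumors and 22.7, 25.0 and 23.9 in the glands (log2 fold change 2.31, SE 0.20, adjusted p = 2.61e-07). None of the 3 overlapped between the groups, and tumor 5 was the lowest for Cdh1. With the term for the 2 sets 12 of 22 were called higher, against 9.26% of all genes. Epcam was then 0.89 (adjusted p = 0.217) and Cdh1 2.91 (adjusted p = 0.00215).

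The 4 luminal keratins were among the 6 pan-epithelial genes that were not called. Krt8 was at 770.1, 413, 977, 1170.2 and 349 CPM in the tumors and 576, 669 and 539 in the glands, and Krt18, whose promoter drives the transgene, at 898, 614, 1515, 1177 and 637 and 476, 671 and 451. Both overlapped between the groups (log2 fold change 0.31, SE 0.79, adjusted p = 0.787 for Krt8, and log2 fold change 0.86, SE 0.49, adjusted p = 0.180 for Krt18). Krt7 and Krt19 were at 1.01 and 0.86. With epithelial scaling the 4 keratins were at -1.55, -0.99, -0.83 and -1.01, so each turned in direction with the scaling, and none was called, so a difference from the other epithelial genes did not pass the test. The scale is centred on 14 of the 22 pan-epithelial genes, the keratins not among them, so the mean of those 14 on it is fixed by the scaling.

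Hormone-sensing luminal genes were present in every tumor. None of the 16 was called in either direction by edgeR (median 0.66), where 17.1% of all genes were higher and 20% lower. Of the 16, 2 were higher at an unadjusted p under 0.05. The count of higher calls was 5 with the 8 samples alone, 2 with DESeq2, 1 with library sizes alone and 0 with voom. Over all genes, 4190 of 17995 were higher with the 8 samples alone. Of 19186 genes, 3927 were higher with DESeq2, 5122 with library sizes alone and 3951 with voom. Their list took 0.242% to 0.526% of tumor counts and 0.157% to 0.204% of gland counts. Esr1, the estrogen receptor, was at 235, 247, 108, 137 and 177 CPM in the tumors and 119, 103 and 144 in the glands, with overlap (log2 fold change 0.56, SE 0.56, adjusted p = 0.457). Pgr, the progesterone receptor, was at 351, 414, 168, 243 and 266 CPM in the tumors and 47.3, 167 and 63.6 in the glands (log2 fold change 1.64, SE 1.38, adjusted p = 0.369). Foxa1, a factor that opens chromatin for the estrogen receptor, was at 273, 317, 416, 461 and 483 CPM in the tumors and 139, 127 and 122 in the glands (log2 fold change 1.59, SE 0.70, adjusted p = 0.0820). All tumors lay above all glands for Pgr and Foxa1, yet neither passed the threshold. Prlr, the prolactin receptor, was at 109.7, 69.8, 432, 411 and 313 CPM against 559.6, 805 and 659.5, all tumors being lower (log2 fold change -1.34, SE 0.88, adjusted p = 0.246). Per unit of epithelial transcript 6 of the 16 were lower, against 68.1% of all genes, among them Prlr at -3.16 (adjusted p = 0.00272) and Esr1 at -1.27 (adjusted p = 0.0350), while Pgr and Foxa1 were at -0.13 (adjusted p = 0.928) and -0.22 (adjusted p = 0.791). With the term for the 2 sets, 2 of the 16 were higher, against 9.26% of all genes, Pgr being 6.27 (adjusted p = 0.0207). Prlr turned in direction in that fit.

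Against B1/P tumors, which lack the transgene, 7 of the 16 hormone-sensing genes were higher in B1/P/Rbf tumors, where 7.36% of all genes were higher, 9.29% lower and 16.7% called in all. Esr1 differed by a log2 fold change of 4.10, adjusted p = 0.000303, Foxa1 by 2.89, adjusted p = 0.00445 and Pgr by 4.19, adjusted p = 0.0321, in edgeR's quasi-likelihood test. None of the 16 differed from P/Rbf tumors by edgeR, with 3 higher and 2 lower at an unadjusted p under 0.05, where 0.281% of all genes were called, 0.219% higher and 0.0625% lower. All 5 B1/P/Rbf tumors are in one library set, and the P/Rbf tumors are in the other.

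**Figure D4:**
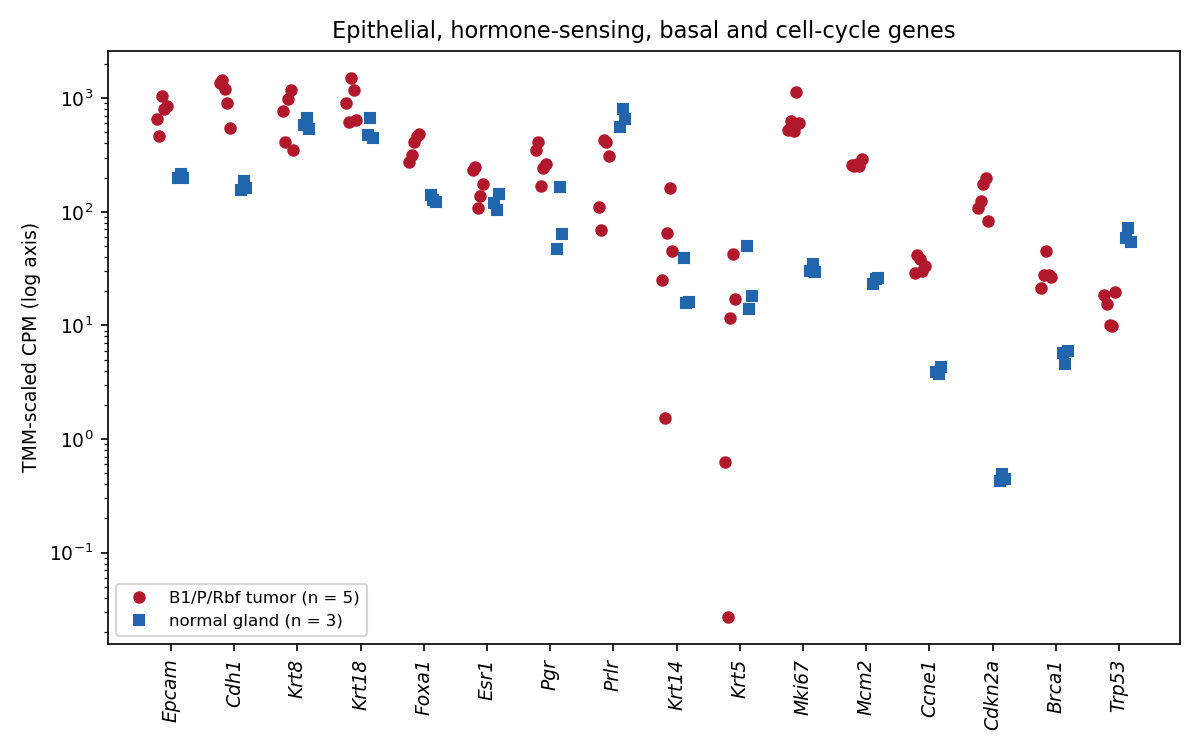
TMM-scaled CPM (log axis) of epithelial, hormone-sensing, basal, cell-cycle and targeted genes in 5 B1/P/Rbf tumors (circles) and 3 normal glands (squares). Cdkn2a, Mki67 and Mcm2 lie above the glands in every tumor, while Krt8, Esr1 and Krt5 overlap.

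Of 11 luminal progenitor genes 1 was higher and 2 lower (median 0.89), no larger a share than the 17.1% and 20% of all genes. Itga2, a collagen receptor subunit, had 226, 68.6, 187, 10.8 and 176 CPM in the tumors and 7.27, 8.02 and 6.97 in the glands (log2 fold change 4.17, SE 0.97, adjusted p = 0.00290). Sox10, a neural crest and mammary progenitor factor, had 0.170, 0.0809, 0.303, 0.0507 and 2.73 CPM in the tumors and 22.04, 27.4 and 27.1 in the glands (log2 fold change -5.29, SE 1.15, adjusted p = 0.00176), and differed from B1/P tumors by -9.35, adjusted p = 0.000422. Sox10 is also made by Schwann cells, 4 of whose 9 list genes fell. The other fall was Mfge8 at -1.09, which lost its call without tumor 2 or 4 or any one gland. Elf5, the driver of the alveolar lineage, was at 5.02, 0.0809, 0.386, 21.7 and 1.43 CPM in the tumors and 16.3, 27.1 and 20.6 in the glands, with tumor 4 alone inside the gland range (log2 fold change -1.90, SE 1.41, adjusted p = 0.309). Kit, a receptor of luminal progenitors, was at 48.0, 342, 373, 18.7 and 34.3 CPM in the tumors and 80.5, 111 and 72.5 in the glands, tumors 2 and 3 lying above the glands and the other 3 tumors below (log2 fold change 0.89, SE 0.91, adjusted p = 0.471). Both Itga2 and Sox10 lost their calls with the term for the 2 sets, at 2.46 (adjusted p = 0.163) and -4.60 (adjusted p = 0.0908).

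Milk genes fell or were not called. One of the falls, Glycam1, is given above with the lymph node genes. Of 9 tested, 4 fell and none rose, against 20% and 17.1% of all genes, with a median of -3.70, or -2.40 with members at the floor set to it. Btn1a1, a membrane protein of milk fat droplets, had 0.0851, 0.0540, 0.0827, 0.330 and 0.0649 CPM in the tumors and 13.8, 34.2 and 19.7 in the glands (log2 fold change -7.46, SE 1.09, adjusted p = 5.88e-05). Wfdc18, a secreted protein of the resting gland, had 0.993, 0.0809, 1.10, 5.78 and 10.4 CPM in the tumors and 41.3, 57.7 and 43.1 in the glands (log2 fold change -3.70, SE 1.11, adjusted p = 0.0150). Csn3, a casein, was at 13.6, 15.0, 52.5, 1.85 and 7.21 CPM in the tumors and 73.3, 114 and 98.2 in the glands (log2 fold change -2.40, SE 1.53, adjusted p = 0.232), and tumor 3 held the most of the tumors. The milk list took 0.0602% of the counts of tumor 3 against at most 0.00689% of the other tumors, so that tumor 3 lay within the gland range of 0.0538% to 0.0912%. Lalba was at the floor in all tumors, with 8 counts in all, and in the glands at 0.703, 2.78 and 1.05 CPM, a ratio of 35.0-fold (95% interval 17.2 to 82.6). Of the 9, 2 were lower with the term for the 2 sets, where 11% of all genes were, and Wfdc18 was -2.83 (adjusted p = 0.295). With epithelial scaling 7 were lower, where 68.1% of all genes were.

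Basal genes did not move together. Of 14 basal keratin and p63 genes 5 rose and 1 fell, against 17.1% and 20% of all genes, with a median of 1.65. With epithelial scaling 2 were higher and 2 lower, against 2.78% and 68.1% of all genes, and the median was -0.20. Krt5 and Krt14, the keratins of myoepithelial cells, were at 0.624, 0.0270, 11.7, 42.9 and 16.9 and 25.0, 1.54, 64.4, 163 and 45.3 CPM in the tumors, and at 50.03, 14.0 and 18.1 and 38.8, 15.7 and 15.9 in the glands. Tumor 2 had almost none of either, and the groups overlapped (log2 fold change -0.92, SE 1.89, adjusted p = 0.733 for Krt5, and log2 fold change 1.35, SE 1.14, adjusted p = 0.372 for Krt14). Trp63, encoding p63, was at 12.1, 0.621, 27.99, 21.7 and 20.5 CPM in the tumors and 22.9, 15.2 and 19.9 in the glands (log2 fold change -0.22, SE 1.04, adjusted p = 0.887). The genes that rose included Itgb4, Itga6 and Lamb3, of the hemidesmosome and its laminin, and Krt15. Itgb4 had 175, 200.2, 222, 216 and 175 CPM in the tumors and 31.2, 28.4 and 24.2 in the glands (log2 fold change 2.82, SE 0.34, adjusted p = 8.99e-06), and stayed higher with epithelial scaling at 0.99 (adjusted p = 0.0241). Krt15 had 2218, 47.5, 29.7, 546 and 65.2 CPM in the tumors and 11.0, 2.65 and 2.78 in the glands (log2 fold change 6.73, SE 2.28, adjusted p = 0.0284), and its call was lost without tumor 1 or any one gland. Oxtr, the oxytocin receptor by which myoepithelium contracts, fell by 6.56 on the log2 scale (adjusted p = 0.000130).

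Contractile genes are shared by myoepithelium and vessel walls, and 7 of 10 fell (median -1.75), against 20% of all genes. All 10 were lower with epithelial scaling, against 68.1% of all genes. Leaving out single libraries gave 2 to 8 of them, with 8 without tumor 1, 2 without gland 1, and 3 or 4 without any other. Lmod1, an actin filament nucleator of smooth muscle, had 4.65, 0.674, 1.19, 2.23 and 1.10 CPM in the tumors and 45.6, 24.9 and 31.1 in the glands (log2 fold change -4.10, SE 0.57, adjusted p = 3.22e-05). Acta2, smooth muscle actin, had 139, 28.5, 51.2, 39.5 and 22.1 CPM in the tumors and 199.5, 109 and 149 in the glands, tumor 1 lying inside the gland range (log2 fold change -1.45, SE 0.55, adjusted p = 0.0459). Its call was lost without any one library other than tumor 1. In Lmod1 and Acta2 tumor 1 was the highest of the tumors.

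Most genes of a mesenchymal list fell. Of 11 genes of epithelial to mesenchymal transition 7 fell and 1 rose, against 20% and 17.1% of all genes, with a median of -2.15. Vim, a mesenchymal filament, had 231, 93.6, 82.1, 108 and 112 CPM in the tumors and 430.3, 396 and 472 in the glands (log2 fold change -1.79, SE 0.37, adjusted p = 0.00131). Zeb1, a repressor of E-cadherin, had 17.4, 8.85, 8.63, 7.15 and 12.2 CPM in the tumors and 64.4, 53.6 and 65.6 in the glands (log2 fold change -2.50, SE 0.38, adjusted p = 8.60e-05). No tumor overlapped a gland for either gene. Both are also expressed in fat, vessels and fibroblasts, whose part in these falls was not tested. Fn1, fibronectin, was the 1 that rose, at 5318, 2569, 3092, 2041 and 3227 CPM in the tumors and 244, 92.0 and 165 in the glands (log2 fold change 4.28, SE 1.00, adjusted p = 0.00309), and it stayed higher with epithelial scaling at 2.42 (adjusted p = 0.0137).

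**Figure D5:**
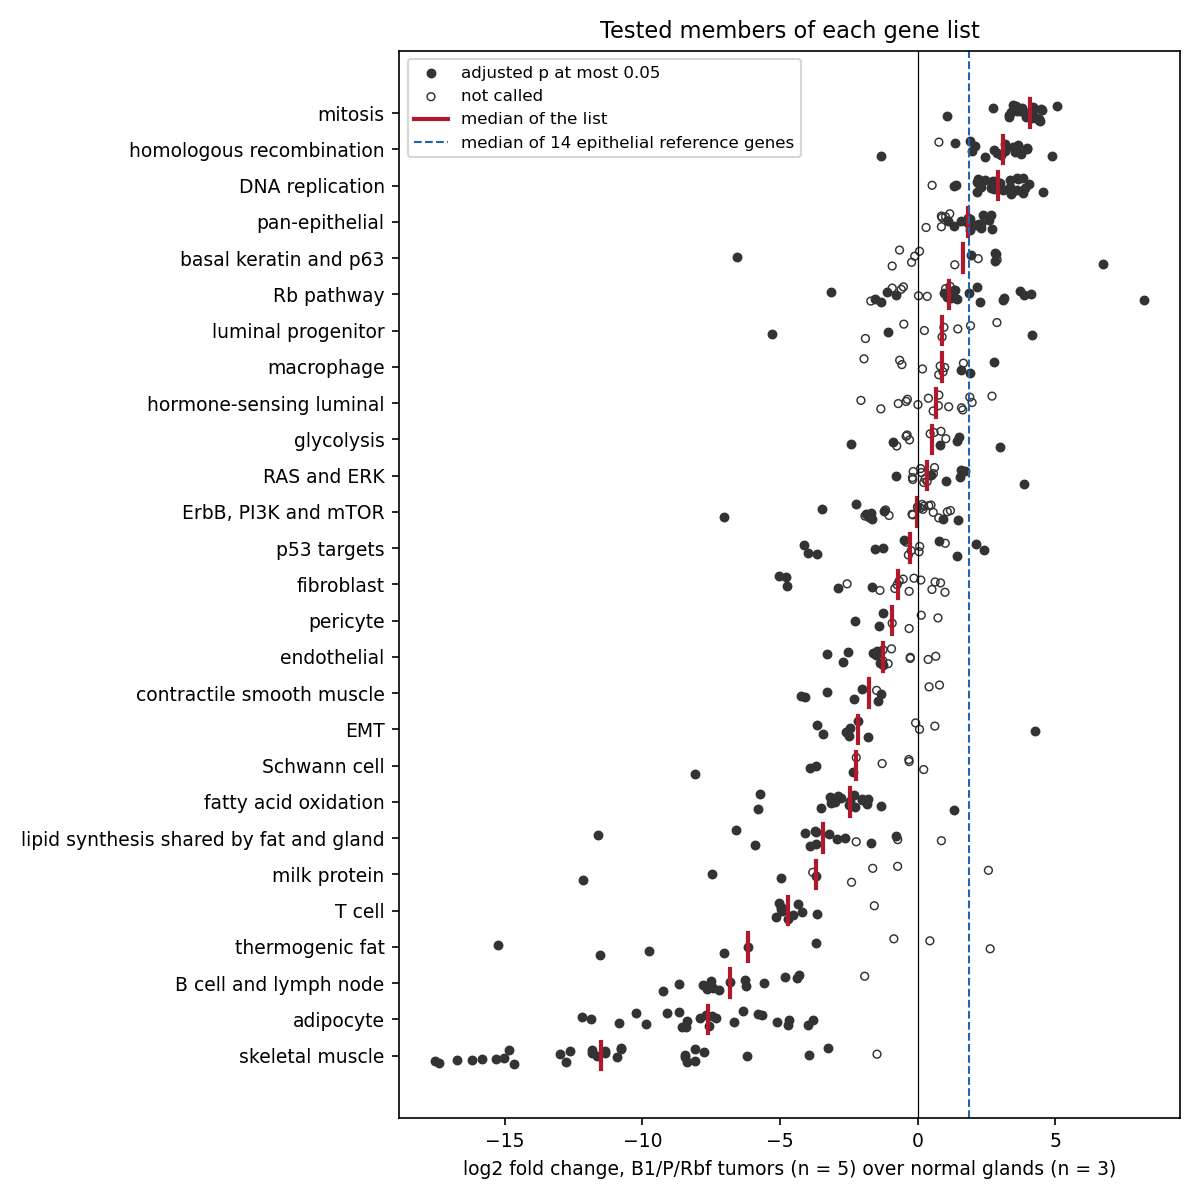
Log2 fold change with TMM scaling, B1/P/Rbf tumors (n = 5) over normal glands (n = 3), for each tested member of 27 lists, with called genes filled, other genes open and list medians as red bars. The dashed line marks the median of the 14 epithelial reference genes at 1.87, to the right of which lie most mitosis, replication and homologous recombination genes.

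Genes of cell division rose beyond the general epithelial genes. Of 26 mitosis genes 26 rose with TMM (median 4.07) and 25 with epithelial scaling (median 2.23), against 17.1% and 2.78% of all genes. Bub3 was the exception on the second scale, at -0.76 (adjusted p = 0.0574). Mitosis genes took 0.294% to 0.452% of tumor counts and 0.0195% to 0.0215% of gland counts. Mki67, the proliferation marker Ki-67, had 529, 631, 510.0, 1134 and 605 CPM in the tumors and 30.2, 34.4 and 29.5 in the glands (log2 fold change 4.44, SE 0.55, adjusted p = 9.95e-06), and was 2.63 (adjusted p = 0.000805) with epithelial scaling. Tumor 4 stood above the other 4 tumors, and all were above the glands. Plk1, a mitotic kinase, had 76.0, 89.4, 64.2, 106 and 53.3 CPM in the tumors and 3.17, 3.73 and 3.96 in the glands (log2 fold change 4.42, SE 0.36, adjusted p = 1.71e-07). Foxm1, the transcription factor of late cell cycle genes, had 98.1, 141, 102, 120.5 and 99.0 CPM in the tumors and 7.11, 6.32 and 5.38 in the glands (log2 fold change 4.16, SE 0.52, adjusted p = 1.07e-05). All 26 were also called higher with the term for the 2 sets, against 9.26% of all genes, and with each library left out.

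DNA replication genes rose in 31 of 32 cases (median 2.90), against 17.1% of all genes, and in 21 with epithelial scaling (median 1.08), against 2.78%, where Gins4 was lower. Orc1, of the origin recognition complex, had 25.4, 13.6, 14.6, 20.6 and 16.0 CPM in the tumors and 0.782, 0.622 and 0.880 in the glands (log2 fold change 4.56, SE 0.49, adjusted p = 2.29e-06), and was 2.72 (adjusted p = 0.000102) with epithelial scaling. Mcm2, of the replicative helicase, had 258, 254, 263, 252 and 290.4 CPM in the tumors and 22.9, 25.8 and 25.9 in the glands (log2 fold change 3.41, SE 0.34, adjusted p = 1.34e-06), a narrow range among the tumors. Pcna, the sliding clamp, had 275, 314, 367, 377 and 206 CPM in the tumors and 63.3, 66.0 and 76.1 in the glands (log2 fold change 2.17, SE 0.25, adjusted p = 5.79e-06), and was 0.31 (adjusted p = 0.367) relative to epithelial genes. The list differed from B1/P tumors in 22 of 32 genes, all higher in B1/P/Rbf, where 7.36% of all genes were higher. Against P/Rbf tumors, where 0.281% of all genes were called, none of the 32 was called by edgeR, a share near that of all genes, with 1 higher and 1 lower at an unadjusted p under 0.05.

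In the Rb pathway itself 15 of 28 genes rose and 5 fell (median 1.13), against 17.1% and 20% of all genes, and 6 rose and 11 fell with epithelial scaling, where 2.78% and 68.1% of all genes did. Cdkn2a, encoding p16 and Arf, had 108, 125, 177, 198 and 83.0 CPM in the tumors and 0.430, 0.491 and 0.440 in the glands (log2 fold change 8.24, SE 0.53, adjusted p = 3.85e-08), and was 6.39 (adjusted p = 4.56e-09) with epithelial scaling. With TMM this was the largest rise among members of the 28 lists. No tumor came near a gland. Ccne1, cyclin E1, had 29.0, 41.5, 38.1, 30.1 and 33.2 CPM in the tumors and 3.87, 3.73 and 4.30 in the glands (log2 fold change 3.11, SE 0.40, adjusted p = 1.71e-05). Among the activating and late E2F genes E2f1, E2f7 and E2f8 rose by 3.14, 3.85 and 4.12, and each stayed higher with epithelial scaling. Of the 3 targets of T121, Rb1 had 16.8, 19.7, 33.7, 28.6 and 42.3 CPM in the tumors and 67.8, 69.0 and 75.8 in the glands and fell (log2 fold change -1.33, SE 0.35, adjusted p = 0.00636), and Rbl2 (p130) fell by 1.56 on the log2 scale. Rbl1 (p107) rose from 19.9 to 20.9 CPM in the glands to 60.9 to 144 in the tumors (log2 fold change 2.26, SE 0.38, adjusted p = 0.000198). Ccnd1, cyclin D1, was at 31.8, 21.8, 30.4, 93.6 and 30.1 CPM in the tumors and 131, 131 and 144 in the glands, tumor 4 standing nearest to the glands (log2 fold change -1.70, SE 0.72, adjusted p = 0.0716). The term for the 2 sets gave 11 of the 28 higher and 2 lower, against 9.26% and 11% of all genes. The falls of Rb1 and Rbl2 then lost their calls, at -1.33 (adjusted p = 0.122) and -0.96 (adjusted p = 0.139), and Ccnd1 turned in direction.

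Homologous recombination genes, to which Brca1 belongs, rose in 18 of 20 cases (median 3.11), against 17.1% of all genes, and in 12 with epithelial scaling (median 1.26), against 2.78%. Exo1, a nuclease that resects DNA ends, had 39.7, 47.9, 51.7, 51.8 and 61.7 CPM in the tumors and 1.68, 1.54 and 1.93 in the glands (log2 fold change 4.88, SE 0.35, adjusted p = 6.01e-08). All tumors lay above all glands. Bard1, the partner of Brca1, rose by 3.74. Rad51d, a further recombination gene, was the 1 that fell, at 13.5, 16.8, 21.8, 13.2 and 16.5 CPM in the tumors and 42.6, 41.4 and 39.2 in the glands (log2 fold change -1.33, SE 0.24, adjusted p = 0.000352).

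Promoters of genes that rose together were read from RefSeq (GRCm38.p6), on the 250 bases before the start. They were searched on both strands for TTTCCCGC, TTTGGCGC, TTTCGCGC and TTTGCCGC (E2F), TTTGAA (CHR, bound by DREAM) and CCAAT (NF-Y). One promoter is shown for each of the mitosis, replication and homologous recombination lists. It was picked, by size of rise, only among called members whose promoter holds an E2F or CHR match. A match in each was therefore set by the choice. E2F and CHR letters are in capitals:
Mki67 promoter, chr7:135716380-135716629, minus strand: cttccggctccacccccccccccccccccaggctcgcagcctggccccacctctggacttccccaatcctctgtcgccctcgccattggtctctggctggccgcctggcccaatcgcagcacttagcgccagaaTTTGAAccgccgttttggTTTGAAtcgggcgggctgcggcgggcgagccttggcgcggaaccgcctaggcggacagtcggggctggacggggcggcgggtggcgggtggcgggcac
Orc1 promoter, chr4:108579204-108579453, plus strand: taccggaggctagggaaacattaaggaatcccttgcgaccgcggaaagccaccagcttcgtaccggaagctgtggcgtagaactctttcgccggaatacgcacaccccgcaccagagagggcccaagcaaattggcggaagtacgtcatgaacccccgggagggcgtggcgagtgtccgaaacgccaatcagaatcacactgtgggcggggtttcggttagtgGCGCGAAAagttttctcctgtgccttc
Bard1 promoter, chr1:71102973-71103222, minus strand: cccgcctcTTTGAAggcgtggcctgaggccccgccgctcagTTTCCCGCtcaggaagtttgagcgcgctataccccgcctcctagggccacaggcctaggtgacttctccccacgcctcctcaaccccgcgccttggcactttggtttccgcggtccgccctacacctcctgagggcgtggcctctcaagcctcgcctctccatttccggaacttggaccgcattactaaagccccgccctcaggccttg
The Mki67 promoter holds TTTGAA at 116 and at 98 bases before the start. The Orc1 promoter holds GCGCGAAA, an E2F match on the opposite strand, 27 bases before the start. The Bard1 promoter holds TTTGAA 242 and TTTCCCGC 209 bases before the start.

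Of 26 mitosis genes called higher 22 matched a promoter, of which 8 (36.4%) held CHR, 1 (4.55%) held E2F and 18 (81.8%) held NF-Y letters. With the 50 bases after the start included, CHR was held by 15 (68.2%) of these, by 4 (15.4%) and 2 (16.7%) of the replication and homologous recombination promoters below, and by 15.2% over all tested genes. In that window E2F letters were held by 1 (4.55%), 11 (42.3%) and 3 (25%) of the promoters of the 3 lists and by 4.12% over all tested genes. Of 31 replication genes 26 matched, of which 8 (30.8%) held E2F, 4 (15.4%) CHR and 17 (65.4%) NF-Y. Of 18 homologous recombination genes 12 matched, of which 2 (16.7%) held E2F, 1 (8.33%) CHR and 7 (58.3%) NF-Y. Over the 13271 promoters of tested genes these shares were 3.43% for E2F, 13.6% for CHR and 39.4% for NF-Y, and over all 27025 promoters 2.16%, 18.3% and 37.5%. The 3 kinds of letters were counted separately, also where matches share bases, and E2F and CHR words both open with TTT. A match describes the sequence and does not show binding.

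Of 16 p53 targets 4 were higher and 6 lower (median -0.28), against 17.1% and 20% of all genes. With epithelial scaling 12 were lower and none higher, against 68.1% and 2.78% of all genes. Ccng1, cyclin G1, had 42.9, 36.7, 42.1, 47.2 and 44.3 CPM in the tumors and 640.0, 394 and 576 in the glands (log2 fold change -3.65, SE 0.24, adjusted p = 3.85e-08). Phlda3, an inhibitor of Akt, had 13.4, 5.40, 9.73, 11.4 and 6.98 CPM in the tumors and 119.5, 169 and 156 in the glands (log2 fold change -3.98, SE 0.48, adjusted p = 7.56e-06). Cdkn1a, encoding p21, had 109, 177, 207, 159.9 and 192 CPM in the tumors and 59.8, 59.8 and 66.7 in the glands (log2 fold change 1.44, SE 0.38, adjusted p = 0.00670), and was -0.38 (adjusted p = 0.436) per unit of epithelial transcript. Mdm2, the ubiquitin ligase of p53, was at 45.0, 40.7, 55.3, 56.4 and 45.2 CPM in the tumors and 60.9, 63.3 and 59.5 in the glands (log2 fold change -0.34, SE 0.25, adjusted p = 0.303). Leaving out gland 1 or gland 3 left 1 higher call, and leaving out gland 2, tumor 3 or tumor 5 left 2. None was higher by edgeR with the term for the 2 sets, with 2 at an unadjusted p under 0.05, and 3 were lower, against 9.26% and 11% of all genes. Cdkn1a was then 0.30 (adjusted p = 0.699).

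Of 27 genes of ErbB, PI3K and mTOR signaling 2 rose and 8 fell (median -0.01), against 17.1% and 20% of all genes. With epithelial scaling 24 were lower and none higher, where 68.1% and 2.78% of all genes were. Library sizes alone gave 8 higher and 7 lower, where 5122 and 2887 of 19186 genes were. The term for the 2 sets gave 1 higher and 3 lower, against 9.26% and 11% of all genes. Erbb2, encoding Her2, had 201, 106, 177, 211 and 183 CPM in the tumors and 66.7, 64.0 and 61.7 in the glands (log2 fold change 1.45, SE 0.26, adjusted p = 0.000348), and was -0.38 (adjusted p = 0.228) with epithelial scaling. Akt1 had 252 to 358 CPM in the tumors and 156 to 167 in the glands (log2 fold change 0.91, SE 0.26, adjusted p = 0.0117). Erbb4, a receptor of lactating epithelium, had 3 counts in all tumors together, a ratio of gland to tumor of 162-fold (95% interval 54.8 to 792).

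Of 17 genes of RAS and ERK signaling 6 rose and 1 fell (median 0.34), against 17.1% and 20% of all genes, and none was higher and 12 lower (median -1.54) with epithelial scaling, where 2.78% and 68.1% of all genes were. The 1 fall, Map2k2, lost its call without gland 1 or gland 2, with library sizes alone and with the term for the 2 sets. Leaving out gland 1 gave 1 higher call, and leaving out gland 2 or gland 3 gave 3. Hras was at 64.8, 47.9, 47.3, 87.9 and 37.2 CPM in the tumors and 43.5, 49.2 and 54.0 in the glands, with overlap (log2 fold change 0.22, SE 0.36, adjusted p = 0.658). Nras, another RAS gene, had 136, 148, 5505, 164 and 121 CPM in the tumors and 77.7, 94.7 and 77.4 in the glands (log2 fold change 3.87, SE 1.21, adjusted p = 0.0187). Its fold change came from tumor 3, without which it was 0.77 (adjusted p = 0.0762), and the call was also lost without any one gland. Nras was 4.20 (adjusted p = 0.0921) with the term for the 2 sets. In that fit 3 genes of the list were higher, against 9.26% of all genes.

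The excess in tumor 3 extended over a block of neighbouring genes, which was looked for after its values were seen. Of 13 tested genes within 600 kb of Nras on chromosome 3, 7 were over 10-fold above the mean of the other tumors in tumor 3. Sike1 and Nras were 28.1-fold and 38.7-fold above that mean, while the ratios of Gm43063 and Nr1h5 rest on few counts in the other tumors. Sike1 had 1731 CPM in tumor 3 and 60.02 to 63.03 CPM in the other tumors. The other 6 genes of the window were at 0.889-fold to 4.06-fold, Dennd2c and Bcas2 on one side and Tspan2 on the other among them. The block took 2.34% of the counts of tumor 3 and at most 0.0973% of any other of the 8 samples. Ampd1, a muscle gene, lies in it, and was at 4.85 CPM in tumor 3 and at 0.0974 to 0.189 CPM, also few counts, in the other tumors. DNA copy number was not measured in these data.

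The largest rises by the naming rule were of genes with no or almost no counts in the glands. Reg3b, a secreted lectin, had 434, 182, 64.0, 1.57 and 18.5 CPM in the tumors and no counts in any gland, so it was at least 1194-fold higher. The call of Reg3b was lost with the term for the 2 sets. Bpifa1, a secreted protein of airway epithelium, was at least 771-fold higher, and Vgll1, a TEAD cofactor, at least 206-fold. Npy, neuropeptide Y, had 1431, 26.5, 145, 65.4 and 1.75 CPM in the tumors and 3 counts in the glands, a ratio of 9474-fold (95% interval 3242 to 45942), and tumor 1 held most of it. Clca3b had 53.4, 546, 318, 8.22 and 738 CPM in the tumors and 2 counts in the glands, a ratio of 13592-fold (95% interval 3763 to 112240.0). Mmp10, a secreted matrix protease, had 185, 19.1, 21.6, 14.0 and 5.97 CPM in the tumors and 1 count in the glands, a ratio of 4188-fold (95% interval 752 to 165454). Tunar was at least 73.5-fold higher, and its call was lost without any one gland. Fgf15, a fibroblast growth factor gene near Ccnd1 on chromosome 7, had 0.0567, 0.432, 0.0551, 204 and 0.0325 CPM in the tumors and no counts in the glands. Its bound of at least 349-fold rests on tumor 4, the tumor in which Ccnd1 was highest, and the call was lost without tumor 4 or any one gland. The other 4 of these 12 were predicted genes.

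By mean CPM the largest rises were in Fn1, Clu, Igf2, Itih2, Tgm2, Ptma, Pkm, Nras, Ctnnb1, Cdh1 and Actg1, and in 1 predicted gene. Ctnnb1, beta-catenin, had 1187, 1359, 1656, 1181 and 2146 CPM in the tumors and 441, 456 and 453 in the glands (log2 fold change 1.74, SE 0.27, adjusted p = 0.000100), and was -0.06 (adjusted p = 0.866) with epithelial scaling. Igf2, an insulin-like growth factor, had 429.6, 3017, 2080.3, 344 and 1271 CPM in the tumors and 19.7, 12.7 and 18.1 in the glands (log2 fold change 6.41, SE 2.03, adjusted p = 0.0201), a call lost without any one gland. Itih2, a hyaluronan-binding protein, had 327, 1451, 1133, 599 and 3096 CPM in the tumors and 23.4, 4.88 and 22.5 in the glands (log2 fold change 6.28, SE 1.75, adjusted p = 0.00964). Clu, Tgm2 and Actg1 were called at 2.76, 1.23 and 0.81, and each lost its call without gland 1 or gland 3. With epithelial scaling Igf2 and Itih2 stayed higher, Igf2 at 4.55.

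The largest falls were mostly of muscle genes. Of the 12 largest, 6 belonged to the muscle list, and 11 had at most 3 counts in every tumor. Cyp2e1, a cytochrome P450 of liver and fat, had 2233, 715 and 2677 CPM in the glands and no counts in the tumors, at least 19256-fold lower. Mybpc1 and Myot, of the sarcomere, were at least 6644-fold and 3519-fold lower, and Hfe2, a muscle and liver gene of iron control, at least 1824-fold. The major urinary proteins, lipid carriers of which 12 were tested, all fell, against 20% of all genes. Their summed levels were 2486, 2152 and 2171 CPM in the glands and 0 to 0.369 CPM in the tumors. The 12 are near-identical copies, so they are not separate falls, and the count of any one of them, such as Mup18 or Mup11, is uncertain.

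Once every gene of the fat, muscle, stroma, immune and shared lists was set aside, the 12 largest falls still held muscle genes. They were Mybpc1, Myot, Hfe2, Ckmt2, Mstn, Ano5, Actn2 and Csrp3, of muscle fibers, Cyp2e1, and Mup18, Mup11 and Mup22. Mstn, myostatin, had 140.2, 119 and 129 CPM in the glands and none in the tumors, at least 1329-fold lower. Ckmt2, mitochondrial creatine kinase of muscle, had 1 count in the tumors and 441, 157 and 419 CPM in the glands, a ratio of 59413-fold (95% interval 10663 to 2346760.0). The 59 genes of the fat, heat-producing fat and muscle lists that fell made up 22.8% of the summed fall in mean CPM over 3835 genes. With the term for the 2 sets, Cyp2e1, Myot, Mup11, Hfe2, Ckmt2, Mstn and Ano5 were not called.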

How the data were processed

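Total RNA of 1 tumor or gland per mouse was sequenced as stranded, paired-end mRNA libraries. The values deposited by the authors are RSEM expected counts per gene, not normalized. The submitters' processing notes name cutadapt 1.18, RSEM 1.3.0, FastQC 0.11.5, Picard 1.119 and DESeq2 1.28.1. The notes list human and mouse builds and the methods name a human one, whereas all 55450 identifiers matched mouse GENCODE M21 (GRCm38), which gave names and coordinates. Strand use in counting is not given in the sources used here. Expected counts (5.61% not whole) were rounded.

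Genes passing filterByExpr (minimum count 10) were tested with edgeR 4.0.16 (R 4.3.3) on all 18 samples, with TMM and no covariate, and called at a Benjamini-Hochberg adjusted p of at most 0.05. The SE is the log2 fold change divided by the square root of F. In simulated data 50 genes were changed at each fold, in both directions, and all others were left equal between the groups. Of genes changed by 2, 4, 8 and 16-fold, 6%, 36%, 58% and 78% were recovered, with 3 false calls. Far more genes differ in the real data, so the simulation does not give the number of false calls there. Alternatives were library sizes alone, epithelial scaling, DESeq2 1.42.0, voom of limma 3.58.1, other filters, the 8 samples alone, the term for 2 sets of libraries, and leaving out each sample. Levels within 3 counts in every library of a group were taken as at the floor. A group at 0 in every library gave a bound, and one with counts up to the floor gave a ratio with an exact 95% interval, which covers counting error only.

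Named genes were Brca1 and Trp53, up to 5 defining genes a list, the 12 largest rises and falls in log2 fold change among called genes with at least 5 CPM and no overlap (4991 genes), the 12 largest falls outside the tissue lists, and the 12 largest rises and falls in mean CPM. A few others are named as the exceptions to a count, and some results are not reported here. The comparison, lists and pairs were chosen with earlier results of these data known.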

Additional observations from a re-analysis of the deposited data

Results flagged for a closer look

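Among 141 series of 5 tumor values, 31 held 1 tumor whose gap to the nearest other tumor was over 71.0% of the whole range. Chance alone flags about 1 in 20 such series where values are normally distributed. The CPM and percentages used here need not be, and the series are not independent, so nothing is read from the count of 31.

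Tumor 1 held larger shares of the adipocyte, fibroblast and contractile lists than the other 4 tumors. In it Adipoq stood at 18.2, Plin1 at 9.30, Fabp4 at 118, Car3 at 50.7 and Cfd at 20.5 CPM, and the adipocyte list at 0.0631% of counts. Pdgfra stood at 118, Pecam1 at 108, Vim at 231, Acta2 at 139 and Myh11 at 28.02 CPM, and the fibroblast list at 0.648%. Tumor 1 was also apart in Krt15 at 2218 CPM, the basal list at 0.406%, Npy at 1431 CPM and Mmp10 at 185 CPM. Each of these was the highest value of the 5 tumors. The share of the heat-producing fat list in tumor 1, 0.00234%, was the lowest of the 5.

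Tumor 3 stood apart in Nras at 5505 CPM, with the RAS and ERK list at 0.719% of counts, in Brca1 at 45.0 CPM, in Csn3 at 52.5 CPM with the milk list at 0.0602%, and in the predicted gene 2210407C18Rik at 473 CPM. Tumor 4 stood apart in Fgf15 at 204, Ccnd1 at 93.6, Mki67 at 1134, Ptma at 2722, Elf5 at 21.7 and the predicted gene Gm49394 at 139 CPM. Tumor 5 stood apart in Dgat2 at 579 and Mcm2 at 290.4 CPM, and in the p53 target list at 0.202% of counts. The part of tissue composition, library quality or DNA copy number in these values was not tested.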

How the results depend on the processing

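Counts of higher and lower calls moved most with the scaling and the filter. Against 3273 higher and 3835 lower genes, library sizes alone gave 5122 higher (64.0% of calls against 46.0%), epithelial scaling 534 and 13062 (3.93%), and a filter that kept genes reaching a log2 CPM of 6 in 6 or more samples 901 and 859 of the 4551 genes that were left. The term for 2 sets of libraries gave 1776 and 2103. Leaving out single libraries gave 1999 to 3143 higher and 2994 to 3787 lower genes. DESeq2 gave 3927 and 4093, voom with quantile normalization 3951 and 3747 at a median shift of 0.15, no filter 2902 and 3997, and the 8 samples alone 4190 and 4590.

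Among the genes followed through every setting, the log2 fold change turned with epithelial scaling in Krt8 (-1.55), Krt18 (-0.99), Esr1 (-1.27), Pgr (-0.13), Foxa1 (-0.22), Kit (-1.02), Krt14 (-0.49), Col1a1 (-0.93), Csf1r (-1.04), C1qa (-0.87), Cdkn1a (-0.38), Erbb2 (-0.38), Akt1 (-0.93), Hras (-1.62), Dusp6 (-1.56), Cpt1a (-0.51), Pkm (-1.04), Tgm2 (-0.58), Ptma (-0.44), Ctnnb1 (-0.065) and Actg1 (-1.02). With the term for 2 sets it turned in Prlr (1.90), Trp63 (0.53), Col1a1 (-0.34), Pdgfra (0.33), Csf1r (-0.79), C1qa (-0.11) and Ccnd1 (0.047), and 42 of the named genes lost their call, Epcam, Sox10, Adipoq, Ckm, Rb1, Cdkn1a and Reg3b among them. It turned with library sizes alone in Trp63 (0.14), Pdgfra (0.052), Rgs5 (0.067) and Mdm2 (0.029), with voom in Kit (-0.044), with the stricter filter in Krt8 (-0.0098), and without tumor 2 in Trp63 (0.091). The Krt14 to Krt8 difference was 0.26, ranged from -0.17 to 1.13 without single libraries, and was -0.17, -0.14 and -0.051 without tumor 4, tumor 5 or gland 2. Epithelial scaling and library sizes alone shift genes together, by a median of -1.83 and 0.37, so turns under them are not particular to these genes. The cause of the other changes was not tested. Leaving out a gland ended 16 to 17 calls of named genes, and leaving out a tumor 4 to 9. Leaving out a sample leaves the pair test unable to reach its threshold. No paired analysis was possible because titles hold mouse identities and no replicate number is shared between groups. Genes with few counts are limited by depth, and 3 glands limit every comparison.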

Other observations

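Falls in mean CPM were also ranked over all called genes. The 12 largest were mt-Co1, mt-Cytb and mt-Nd4 of the mitochondrial genome, the predicted genes Gm28437, Gm28661 and Gm10925, Scd1 of lipid synthesis, Car3 and Cfd of adipocytes, and Myh4, Acta1 and Atp2a1 of muscle.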
